A study of Mus musculus with 11 samples.

Results

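The Gadd45 family consists of Gadd45a, Gadd45b and Gadd45g, and it was followed here through H3K27ac, that is, histone H3 carrying an acetyl group on lysine 27, which marks active promoters and enhancers. All rows of the authors' deposited table whose gene symbol was one of the 3 names were taken, which gave 20 of 56342 regions: 12 for Gadd45a, 3 for Gadd45b and 5 for Gadd45g. The similarly named Gadd45gip1 is not a family member and was not counted. The cells were Beko, a mouse pre-T cell line, kept for 24 h with apicidin at 0.01 mg/ml, with the gamma-secretase inhibitor (GSI) DAPT at 10 mg/ml or with DMSO as the control, doses as labelled. Apicidin inhibits histone deacetylases and is labelled as an inhibitor of HDAC3, whereas DAPT blocks the cleavage that releases active Notch. H3K27ac was profiled by chromatin immunoprecipitation and sequencing in 2 libraries for each of apicidin, GSI and DMSO. RBPJ, the DNA-binding partner of cleaved Notch, was profiled in 2 libraries of DMSO cells, and 1 input was made for each condition. Nothing in the labels tells whether the paired libraries stem from separate cultures, and the p-values thus measure only the spread between libraries, which may be technical.

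GADD45 proteins are small acidic nuclear proteins with no known enzyme activity that act by binding others. They bind and activate the kinase MAP3K4, which feeds the p38 and JNK kinases, they bind CDK1, PCNA and the cell-cycle inhibitor p21, and they take part in DNA repair and demethylation. Gadd45a is a classical target of p53 after DNA damage and restrains one form of p38 activation in T cells, while Gadd45b, an NF-kB target, and Gadd45g promote p38 signalling and interferon-gamma production in T helper cells.

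The promoters of the 3 genes are shown because a gap between acetylated regions lies at each. Each sequence is from RefSeq on GRCm38.p6 and runs from 250 bases before to 50 bases after the start of the transcript. Capitals mark matches on either strand to the octamer ATTTGCAT, the CCAAT box (CCAAT), the RBPJ core TGGGAA and the TATA box (TATAAA). In human cells octamer and CCAAT motifs of the GADD45A promoter are known for responses to histone deacetylase inhibitors, which is why they were searched.
Gadd45g, chr13:51846425-51846724, plus strand: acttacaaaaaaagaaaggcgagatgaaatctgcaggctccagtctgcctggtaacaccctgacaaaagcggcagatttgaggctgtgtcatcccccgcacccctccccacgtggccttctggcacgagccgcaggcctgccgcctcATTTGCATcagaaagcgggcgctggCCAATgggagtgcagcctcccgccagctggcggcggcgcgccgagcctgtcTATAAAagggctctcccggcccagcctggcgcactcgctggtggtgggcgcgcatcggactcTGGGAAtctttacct
Gadd45b, chr10:80929841-80930140, plus strand: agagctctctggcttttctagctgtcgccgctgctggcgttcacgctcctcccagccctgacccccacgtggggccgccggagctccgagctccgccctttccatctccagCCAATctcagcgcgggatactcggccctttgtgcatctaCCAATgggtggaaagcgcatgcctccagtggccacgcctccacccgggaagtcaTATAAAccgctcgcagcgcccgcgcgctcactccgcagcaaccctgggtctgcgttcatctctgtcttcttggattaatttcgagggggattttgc
Gadd45a, chr6:67037358-67037657, minus strand: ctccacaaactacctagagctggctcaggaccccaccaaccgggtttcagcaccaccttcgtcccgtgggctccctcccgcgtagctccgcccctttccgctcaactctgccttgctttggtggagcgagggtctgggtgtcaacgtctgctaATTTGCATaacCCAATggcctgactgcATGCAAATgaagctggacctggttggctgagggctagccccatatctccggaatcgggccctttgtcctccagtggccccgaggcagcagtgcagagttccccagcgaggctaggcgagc

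A match to the octamer lay 103 to 96 bases before the start of Gadd45g, and Gadd45a held a match on each strand, 97 to 90 and 70 to 63 bases before its start. The octamer occurred in 1.74% of the 32851 promoters of the same length, and the Gadd45b window held none. CCAAT, found in 37.4% of promoters, was present once in Gadd45g, once in Gadd45a and at 2 places in Gadd45b. TATAAA (13.6% of promoters) was present in Gadd45g and Gadd45b, and TGGGAA (25.6%) only in Gadd45g, 36 to 41 bases after the start. No letters of one match overlapped another. GC content was 62.3% in Gadd45g, 62.0% in Gadd45b and 61.0% in Gadd45a, against a median of 52.7% over all promoters. A match is a description of letters and not a bound site.

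At each gene the start site sat in or beside a gap in the acetylated regions. How often other start sites have such a gap was not counted, so it is not shown to be particular to these genes. Positions of the start sites on mm9, the build named in the submitters' processing notes, followed from the distances in the authors' deposited table and differed by at most 2 bases among the regions of a gene. At Gadd45g (transcript NM_011817, chromosome 13, start at 51942043) one region ended 128 bases before the start and the next began 26 bases before it, leaving 101 bases uncovered. For Gadd45b (NM_008655, chromosome 10, start at 80392835) the gap was 324 bases and took in the start itself. The gap at Gadd45a (NM_007836, chromosome 6, start at 66987402) was 157 bases, from 197 to 39 bases before the start. If the start is the same base on both builds, which was not tested, all 7 octamer and CCAAT matches lie within these gaps. Over all motifs 8 of 10 matches do. The Gadd45b gap fills most of the 300 bases searched and the Gadd45a gap a large part, so this placement was partly fixed beforehand. None of the 20 regions was marked in the authors' deposited table as overlapping an RBPJ site, a mark carried by 2.73% of all regions.

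**Figure D1:**
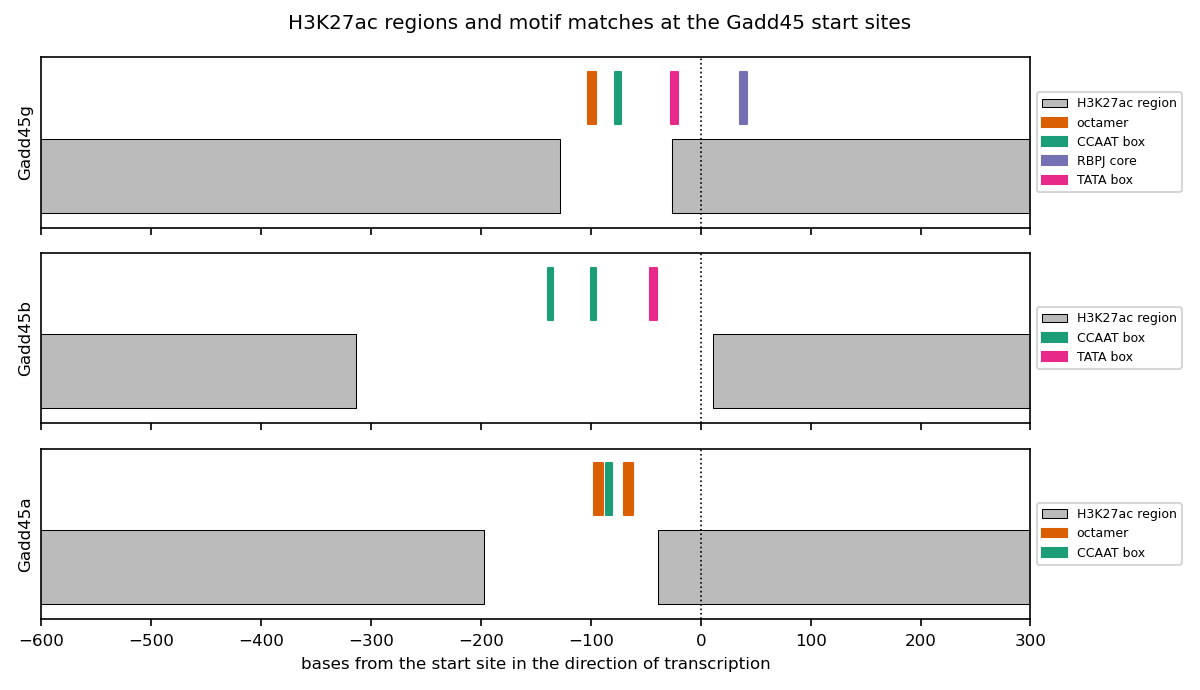
H3K27ac regions (grey bars) and promoter motif matches (coloured bars) around the start sites of the 3 genes, with distance in bases from the start along the x axis (dotted line, 0) and 1 panel per gene. If the start is the same base on both builds, octamer and CCAAT matches sit in the gaps of 101, 324 and 157 bases between regions. Over all motifs 8 of 10 matches do.

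The table holds no value per library, so levels are given as the base mean, the authors' mean of normalised read counts over libraries, which has no SD. Signal per length is the base mean divided by the width of a region in kb. The upstream Gadd45g region was dense, at 292.5 per kb in a width of 1027 bases, and its region over the start had 112.2 per kb over 2730 bases, which spans the whole gene. The regions of Gadd45b were sparse, with 74.03, 80.35 and 87.87 per kb, below the median of 107.5 per kb over all regions. The Gadd45a region upstream of the start had 172.8 per kb, and its remaining regions 70.45 to 148.8 per kb. Regions over any start site had a median of 237.2 per kb.

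The start of Gadd45a was itself acetylated, under another name. A region of 2158 bases (chromosome 6, 66985284 to 66987441) with 337.8 per kb ran from 39 bases before to 2118 bases after the start of Gadd45a, but the authors' deposited table gives it to E230016M11Rik, a noncoding RNA gene that overlaps Gadd45a in RefSeq. It is therefore outside the 20 regions, and its values are given beside them. ChIP reads carry no strand of transcription, so acetylation of the overlapping genes cannot be told apart.

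Pre-T cell markers fitted the label of the cells: a region covered the start site for 12 of 14 (not for Cd3d and Il2ra), against 0 of 5 B cell markers and 0 of 5 myeloid markers. Summed base means were 99230 over the 14 pre-T cell markers, 593.5 over the 5 B cell markers and 2530 over the 5 myeloid markers. These sums grow with the length of a list. All fold changes are the authors' own. The table's headers name only the treatment, DMSO was taken to be what each treatment is set against, and both comparisons then share the DMSO libraries. In a bulk assay of 1 cell line, more cells carrying the mark and more of it per cell cannot be told apart. The authors' normalisation may have removed a change common to all regions, so higher and lower are relative to the other regions. Throughout, called means an adjusted p under 0.05 in the authors' deposited table, where p-values come from their test across all regions.

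With apicidin, acetylation rose more than 4-fold over the start of Gadd45g and in both regions nearest the start of Gadd45b, and no region near the start of Gadd45a was called. By the authors' deposited table the region over the Gadd45g start (chromosome 13, 51942017 to 51944746, base mean 306.2) rose with a log2 fold change of 2.36 ± 0.17 (SE) and an adjusted p of 3.19e-41, which is 5.13-fold with a 95% interval of 4.08 to 6.45. The region just upstream of Gadd45g (51940889 to 51941915, base mean 300.4) had 0.81 ± 0.15 in the authors' deposited table with an adjusted p of 1.93e-06 and so rose 1.75-fold (1.42 to 2.15). Both lie at the same gene and are separated by the gap, yet their changes differed by 1.55 on the log2 scale (95% interval 1.11 to 2.00, errors taken as independent).

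Gadd45b rose at both regions near its start, from a weaker signal than Gadd45g. Its upstream region (chromosome 10, 80391830 to 80392521, base mean 60.8) rose by 2.40 ± 0.36 (adjusted p = 5.66e-10) in the authors' deposited table, a change of 5.28-fold (3.25 to 8.57). The region inside the gene (80392846 to 80393440, base mean 44.0) rose by 2.05 ± 0.44 (adjusted p = 3.34e-05) in the authors' deposited table, or 4.16-fold (2.29 to 7.53). A fainter region farther upstream (80391458 to 80391680, base mean 17.9) stood at 1.26 ± 0.62 in the authors' deposited table and was not called (adjusted p = 0.133). All regions of Gadd45b thus had positive values, 2 of 3 past the threshold.

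At Gadd45a the values near the start were small and pointed both ways. The upstream region (chromosome 6, 66987599 to 66988494, base mean 154.9) had 0.49 ± 0.21 in the authors' deposited table (adjusted p = 0.0675, not called), or 1.40-fold (1.06 to 1.85). It was called at 0.59 (adjusted p = 0.0224) when values were centred on the stronger regions, with the trend over base mean subtracted (adjusted p = 0.03) and when weaker regions were left out (adjusted p = 0.0411). The region over the start that carries the E230016M11Rik name had -0.21 ± 0.10 (adjusted p = 0.118, not called) in the authors' deposited table. Of the remaining 11 Gadd45a regions, 10.6 to 108.2 kb upstream, 1 rose and 10 were not called, with log2 fold changes between -0.45 and 0.51. The one that rose lay 56.8 kb upstream (67044237 to 67046005) with 0.51 ± 0.18 (adjusted p = 0.0207) in the authors' deposited table.

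Over the whole family 5 of 20 regions rose with apicidin, 0 fell and 15 were not called, beside 9.69% of all regions higher, 14.1% lower and 23.8% called either way. At an unadjusted p under 0.05 the authors' deposited table (DESeq2) has 7 members higher and 0 lower. The share of all regions at that threshold was not counted, so these 7 are a description only. The family median of 0.10 beside 0.0040 over all regions includes 11 distal regions of Gadd45a. Within 1 kb of a start 4 of 5 members rose, against 8.01% of the 11442 regions so placed, whose median was -0.17 while the 5 members had a median of 2.05. That count leaves out the region over the Gadd45a start, given to E230016M11Rik, which was not called (-0.21 ± 0.10, adjusted p = 0.118).

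By the deposited log2 fold change for apicidin, the Gadd45g start region ranked 1st of the 7889 regions that cover a start site, and also 1st once the trend over base mean was subtracted. The 2 Gadd45b regions nearest the start ranked 9th and 18th of the 11442 regions within 1 kb, and the Gadd45g start region ranked 11th. Among the 21840 regions within 2-fold of its base mean, the upstream Gadd45b region was 38th. Gadd45a's upstream region ranked 1006th of 11442 within 1 kb.

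**Figure D2:**
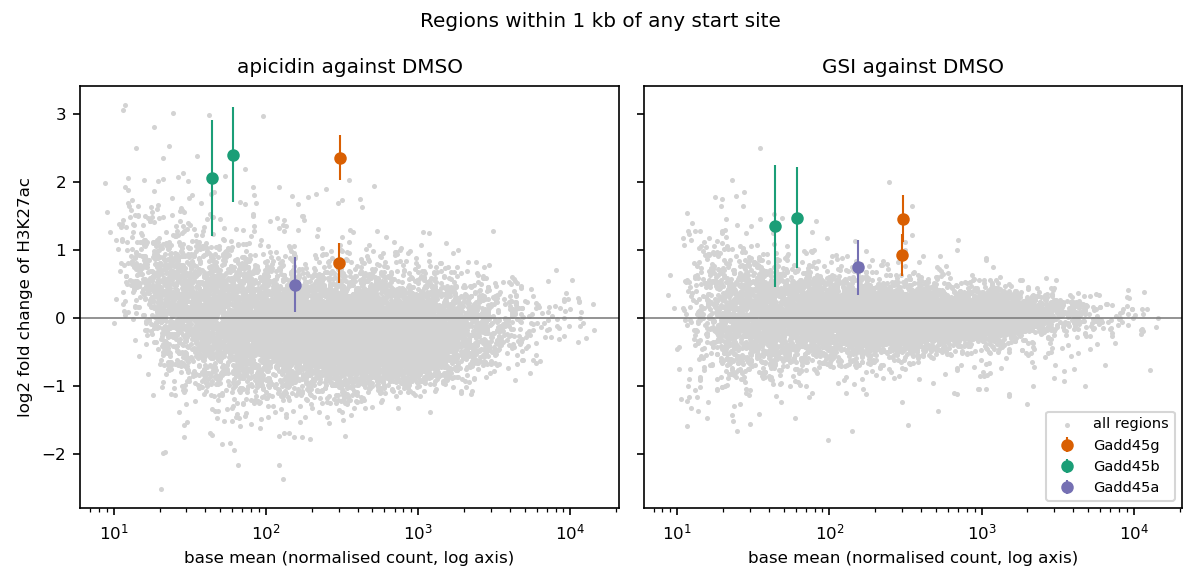
Log2 fold change against base mean (log axis) for the 11442 regions within 1 kb of any start site (grey) and for the family members among them (colours, 95% intervals), with apicidin on the left and GSI on the right. The Gadd45g start region, at 2.36 and 1.46, and both Gadd45b regions stand above nearly all regions of like base mean, and Gadd45a lies nearer the bulk.

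With GSI both Gadd45g regions near the start and the upstream Gadd45a region rose, the region over the Gadd45a start was not called, and those of Gadd45b had positive values but no adjusted p. In the authors' deposited table the Gadd45g start region rose by 1.46 ± 0.18 (adjusted p = 2.50e-14), or 2.75-fold (2.16 to 3.5), and the upstream Gadd45g region by 0.92 ± 0.16 (adjusted p = 1.58e-07), or 1.90-fold (1.53 to 2.35). The upstream Gadd45a region rose by 0.74 ± 0.21 (adjusted p = 0.00531) in the authors' deposited table, which is 1.67-fold (1.26 to 2.22). The region over the Gadd45a start stood at 0.20 ± 0.10 in the authors' deposited table, not called at an adjusted p of 0.202.

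Gadd45b had no adjusted p for GSI, because the authors' deposited table leaves it out for all 30586 regions with a base mean up to 72.1. Its upstream region stood at 1.48 ± 0.38 (unadjusted p = 9.04e-05) and the region inside the gene at 1.35 ± 0.46 (unadjusted p = 0.00316) in the authors' deposited table, or 2.78-fold (1.67 to 4.64) and 2.55-fold (1.37 to 4.74). Adjusting the deposited p-values over all 56342 regions gave the upstream region an adjusted p of 0.00301, past the threshold, and the other 0.0543. Of all regions adjusted together, 2.70% were higher. The fainter region farther upstream had 0.51 ± 0.66 in the authors' deposited table.

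Among the 15 family regions farther than 1 kb from a start, 5 had positive and 10 negative values with GSI, with a median of -0.16, beside a median of -0.0020 over all regions so placed. A Gadd45a region 11.2 kb upstream (66998559 to 67000731, base mean 283.2) fell by 0.43 ± 0.16 (adjusted p = 0.0465) in the authors' deposited table, a call that was lost on adjustment over all regions (adjusted p = 0.0899). None of the other 10 distal Gadd45a regions was called with GSI, 4 of them being untested, and 9 of all 11 had negative values. The 3 distal Gadd45g regions, 17.0 and 21.1 kb upstream and 117.3 kb downstream, had values from -0.24 to 0.25 with GSI and from -0.03 to 0.62 with apicidin, and none was called in the authors' deposited table, 1 being untested with GSI.

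In all, 3 of 12 tested members rose with GSI, 1 fell and 8 were not called, beside 6.62% of tested regions higher, 7.17% lower and 13.8% called. Within 1 kb of a start 3 of 3 tested members rose, against 5.16% of the tested regions so placed. The region over the Gadd45a start, which is not a member, was tested and not called (0.20 ± 0.10, adjusted p = 0.202). The Gadd45g start region ranked 2nd of 7889 start-covering regions by log2 fold change with GSI, after the region of Lztfl1, a ciliary protein gene. The 2 Gadd45b regions nearest the start were 13th and 22nd, and the upstream Gadd45a region 168th, of 11442 within 1 kb.

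**Figure D3:**
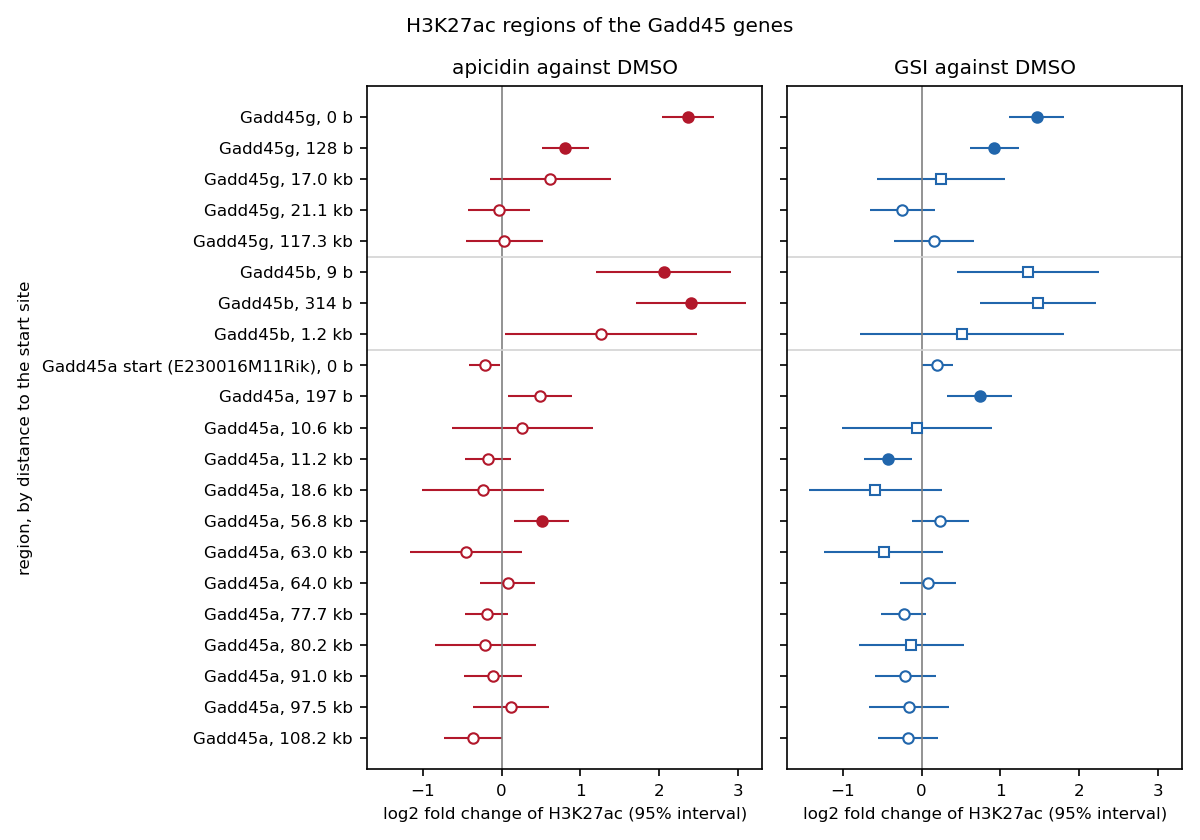
Log2 fold changes with 95% intervals for the 20 regions and for the region over the Gadd45a start, for apicidin (left) and GSI (right), ordered by gene and distance to the start site. Filled points were called, open circles were not, and open squares had no adjusted p. Values near the start of Gadd45g and Gadd45b reach 2.40, while distal regions scatter around 0.

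Apicidin and GSI differed from each other at 1 of the 20 regions, the Gadd45g start, beside 8.61% of all regions. The difference, apicidin minus GSI, was 0.90 ± 0.24 on the log2 scale (95% interval 0.42 to 1.38, adjusted p = 0.005 over all regions), with the errors taken as independent although the DMSO libraries are shared. At the upstream Gadd45g region it was -0.12 (interval -0.54 to 0.31, adjusted p = 0.914) and at the upstream Gadd45a region -0.25 (-0.83 to 0.32, adjusted p = 0.818). The Gadd45b differences were 0.93 (-0.09 to 1.94, adjusted p = 0.366) upstream and 0.71 (-0.54 to 1.95, adjusted p = 0.710) inside the gene. The Gadd45b intervals reach differences as large as that at the Gadd45g start, so the test does not show that the treatments act alike there. The region over the Gadd45a start, given to E230016M11Rik, differed the other way, by -0.41 ± 0.14 (-0.69 to -0.13, adjusted p = 0.0481), although it was called with neither treatment alone. That difference was no longer called when values were centred (-0.31, adjusted p = 0.207).

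Ordered by their change with apicidin, the promoter regions ran from the upstream Gadd45b region (2.40) through the Gadd45g start (2.36), the region inside Gadd45b (2.05), upstream Gadd45g (0.81) and upstream Gadd45a (0.49) to the Gadd45a start (-0.21). The first 3 did not differ beyond their errors: the Gadd45g start minus upstream Gadd45b was -0.04 (-0.81 to 0.73), and minus the region inside Gadd45b 0.30 (-0.61 to 1.22). Upstream Gadd45g was below the region inside Gadd45b by -1.25 (-2.16 to -0.34) but not separable from upstream Gadd45a (0.32, -0.18 to 0.82). Upstream Gadd45a was above the Gadd45a start by 0.70 (0.25 to 1.15).

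With GSI the same regions spanned 0.20 to 1.48. The Gadd45g start was above upstream Gadd45g by 0.53 (0.07 to 1.00), above upstream Gadd45a by 0.72 (0.18 to 1.26) and above the Gadd45a start by 1.26 (0.86 to 1.66). Upstream Gadd45b and upstream Gadd45a differed by 0.74 with an interval from -0.11 to 1.58. Such intervals take the errors of separate regions as independent, although all come from the same libraries.

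Because a symbol can hand a region to the nearest neighbour, all regions within 100 kb of each start were counted as well. They numbered 66, of which 18 rose and 1 fell with apicidin and 6 rose and 2 fell of 26 tested with GSI, beside 9.69% higher and 14.1% lower of all regions with apicidin and 6.62% higher and 7.17% lower of those tested with GSI. Adjusted over all regions, 6 rose and 0 fell with GSI. Around Gadd45g 12 of 30 regions rose with apicidin and 0 fell. Of these 12, 10 belonged to Sema4d, the upstream neighbour, which encodes a semaphorin of lymphocytes. With GSI 4 of 14 tested regions rose around Gadd45g and 1 fell, and 2 of those that rose and the one that fell were of Sema4d. Adjustment over all regions ended the call of that fall (adjusted p = 0.0595) and of one Sema4d rise (adjusted p = 0.0664).

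The Sema4d region nearest to Gadd45g, 30.4 kb upstream of its start, rose by 0.92 ± 0.12 (adjusted p = 8.06e-14) with apicidin in the authors' deposited table. Its GSI value there was 0.31 ± 0.12 (adjusted p = 0.0675). Over the Sema4d start the authors' deposited table had 0.32 ± 0.09 (adjusted p = 0.00383) with apicidin and 0.16 ± 0.10 (adjusted p = 0.30) with GSI. Between these and the promoter lay the Gadd45g regions 17.0 and 21.1 kb upstream, which were not called with apicidin.

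Around Gadd45b 4 of 16 regions rose and 1 fell with apicidin, beside 9.69% higher and 14.1% lower of all regions. With GSI 0 of 3 tested were called by the authors' DESeq2 values, beside 13.8% of all tested regions. At an unadjusted p under 0.05, 2 untested regions of Gadd45b itself were higher. The share of all regions at that threshold was not counted, so these 2 are a description only. A region 14.7 kb upstream of Gadd45b given to Lmnb2, which encodes lamin B2, fell by 0.51 ± 0.16 (adjusted p = 0.0102) with apicidin in the authors' deposited table. It was not called when centred (-0.41, adjusted p = 0.0501). Centring also brought in the upstream Gadd45a region (adjusted p = 0.0224). The centred count within 100 kb of the 3 starts was 19 higher and 0 lower. Centred shares of all regions were not counted, so it has no like background. The other regions around Gadd45b that rose with apicidin lay farther off. They were at the start of Lsm7, an RNA processing gene, 73.2 kb upstream (1.07 ± 0.15, adjusted p = 9.52e-12), and at Mir1982 99.6 kb upstream (0.81 ± 0.30, adjusted p = 0.0332), by the authors' deposited table. The Lsm7 value with GSI was -0.07 ± 0.16 there (adjusted p = 0.848), and Mir1982 had no adjusted p in the authors' deposited table. Against 9.69% of all regions, 2 of 20 regions rose with apicidin around Gadd45a. Beside the one 56.8 kb upstream this was a region of E230016M11Rik 64.1 kb downstream (base mean 116.6), whose apicidin value in the authors' deposited table was 1.60 ± 0.24 with an adjusted p of 8.28e-10. With GSI that region rose as well, at 0.97 ± 0.25 and an adjusted p of 0.00187 in the authors' deposited table.

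**Figure D4:**
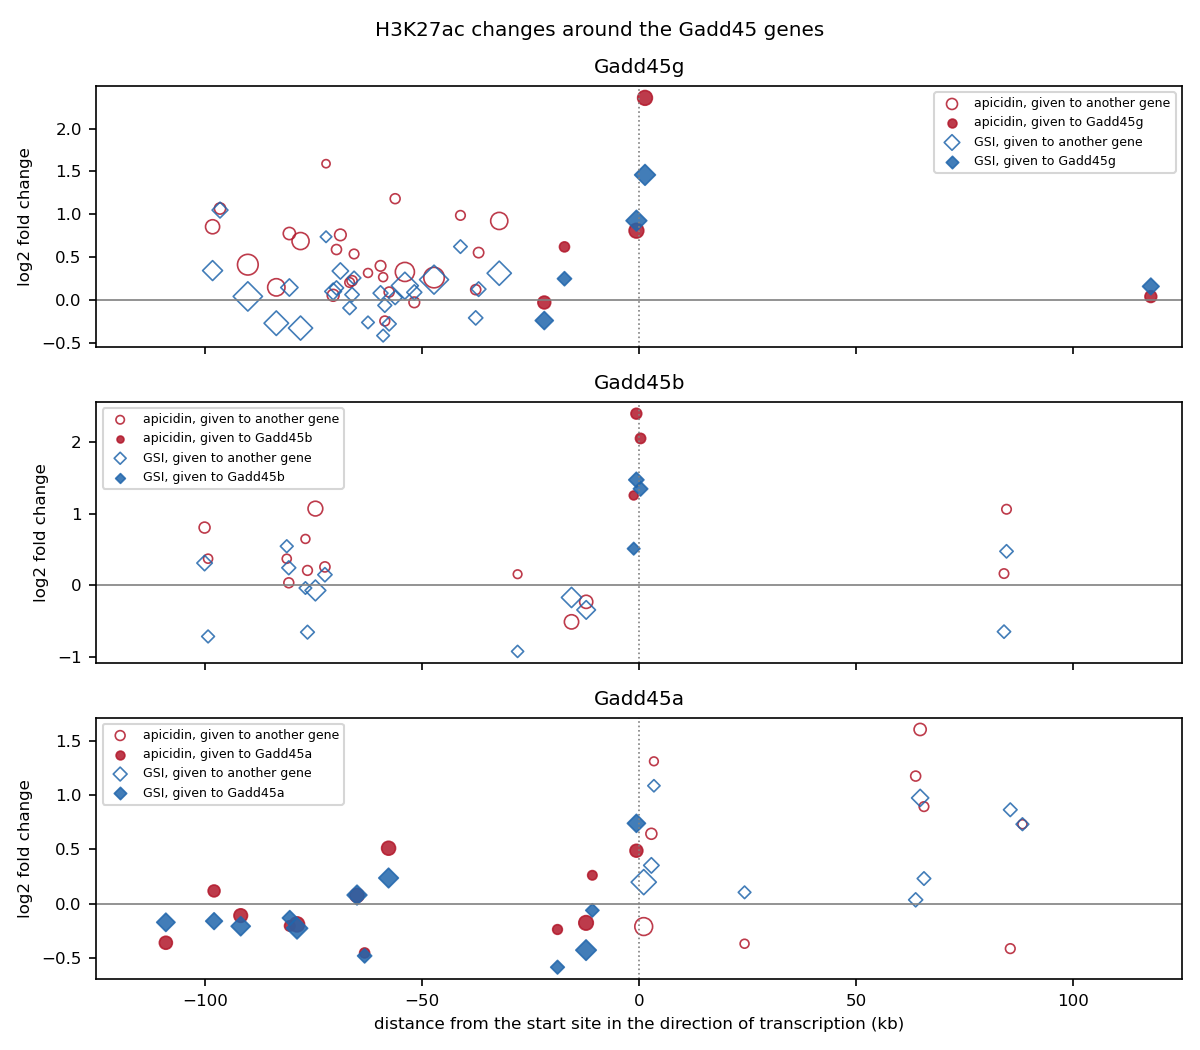
Log2 fold changes of all H3K27ac regions around each start site, by distance in kb in the direction of transcription. Circles are apicidin and diamonds GSI, filled where the region is given to the Gadd45 gene and open where it is given to another gene, and larger symbols have a larger base mean. At Gadd45g and Gadd45b the highest values of both treatments lie within 1 kb of the start, and at Gadd45a the highest apicidin value lies 64.1 kb downstream.

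Genes that GADD45 proteins act on or that are known to drive Gadd45 genes were each represented by their region with the largest base mean, called the strongest here. Rises and falls of these genes refer to that region alone. Of 38 listed genes 34 had a region, and with apicidin 7 rose, 14 fell and 13 were not called, beside 12% higher and 33.5% lower among all genes so counted. Centred on the stronger regions the split was 8 higher and 10 lower, with the falls of Map3k4, Atf2, Ing1 and Smad4 no longer called (adjusted p = 0.102, 0.106, 0.195 and 0.178). Centred shares among all genes were not counted, so this split has no like background. The median over the 34 was -0.19, against -0.18 over all genes.

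In the p38 and JNK kinase branch 2 of 12 genes rose and 7 fell with apicidin, beside 12% higher and 33.5% lower among all genes. Map2k6, a kinase directly above p38, rose by 0.92 ± 0.20 (adjusted p = 4.85e-05), and Map3k5, a kinase at the top of the cascade, by 0.61 ± 0.14 (adjusted p = 1.27e-04), values of the authors' deposited table. A region of the transcription factor gene Jun, a target of JNK, fell by 0.77 ± 0.11 (adjusted p = 3.78e-11) in the authors' deposited table, but lies 108617 bases from its start. Mapk9, which encodes a JNK, fell by 0.65 ± 0.10 (adjusted p = 5.20e-10) in the authors' deposited table. Mapkapk2, which encodes a kinase activated by p38, fell by 0.61 ± 0.11 (adjusted p = 2.13e-07) in the authors' deposited table. Map3k4, the binding partner of GADD45 proteins and named here after its values were seen, fell by 0.48 ± 0.17 (adjusted p = 0.0279) in the authors' deposited table.

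Among cell-cycle and repair partners 1 of 8 rose and 4 fell with apicidin, beside 12% higher and 33.5% lower among all genes. Tet3, which encodes a DNA dioxygenase of demethylation, rose at a region 21533 bases from its start by 0.37 ± 0.07 (adjusted p = 6.53e-06) in the authors' deposited table. Ccnb1, the cyclin B1 gene, fell by 0.85 ± 0.11 (adjusted p = 6.71e-13), Cdk1, its kinase, by 0.78 ± 0.09 (adjusted p = 2.05e-16) and Cdkn1a, the p21 gene, by 0.57 ± 0.10 (adjusted p = 2.54e-07), per the authors' deposited table. The mean over all 8 regions of Ccnb1 was 0.037, and the means of Cdkn1a (-0.006) and Tet3 (0.018) lay near 0. Cdk1 had 1 region.

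Of 14 upstream regulators 4 rose and 3 fell with apicidin, beside 12% higher and 33.5% lower among all genes. In the authors' deposited table Smad3, a transducer of TGF-beta signals, rose by 0.62 ± 0.07 (adjusted p = 8.36e-20), and the forkhead factor genes Foxo3 by 0.41 ± 0.06 (adjusted p = 7.25e-09) and Foxo1 by 0.36 ± 0.10 (adjusted p = 0.00285). Rela, an NF-kB subunit gene, fell by 0.48 ± 0.09 (adjusted p = 5.72e-06), Jund by 0.27 ± 0.06 (adjusted p = 2.14e-04) and Smad4 by 0.30 ± 0.11 (adjusted p = 0.0257) in the authors' deposited table. The mean over all regions of a gene had the other sign for Foxo3 (-0.13 over 37 regions), Jund (0.59 over 5) and Smad4 (0.31 over 7). It had the same sign for Smad3, Foxo1 and Rela.

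With GSI 3 of 31 tested genes of these lists rose, 0 fell and 28 were not called, beside 7.74% higher and 6.80% lower. Of the 34 genes with a region, 4 with positive and 2 with negative values had an unadjusted DESeq2 p below 0.05 in the authors' deposited table. Such p-values were not counted over all genes, so these 4 and 2 are a description only. The 3 that rose were Tdg, which encodes a glycosylase of DNA demethylation (0.31 ± 0.11, adjusted p = 0.0313), Jund, an AP-1 gene (0.21 ± 0.06, adjusted p = 0.00856), and the stress factor gene Ddit3 (0.27 ± 0.10, adjusted p = 0.0464), with values from the authors' deposited table. Adjusted over all regions, Jund alone was called (Tdg adjusted p = 0.0616, Ddit3 adjusted p = 0.0898).

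**Figure D5:**
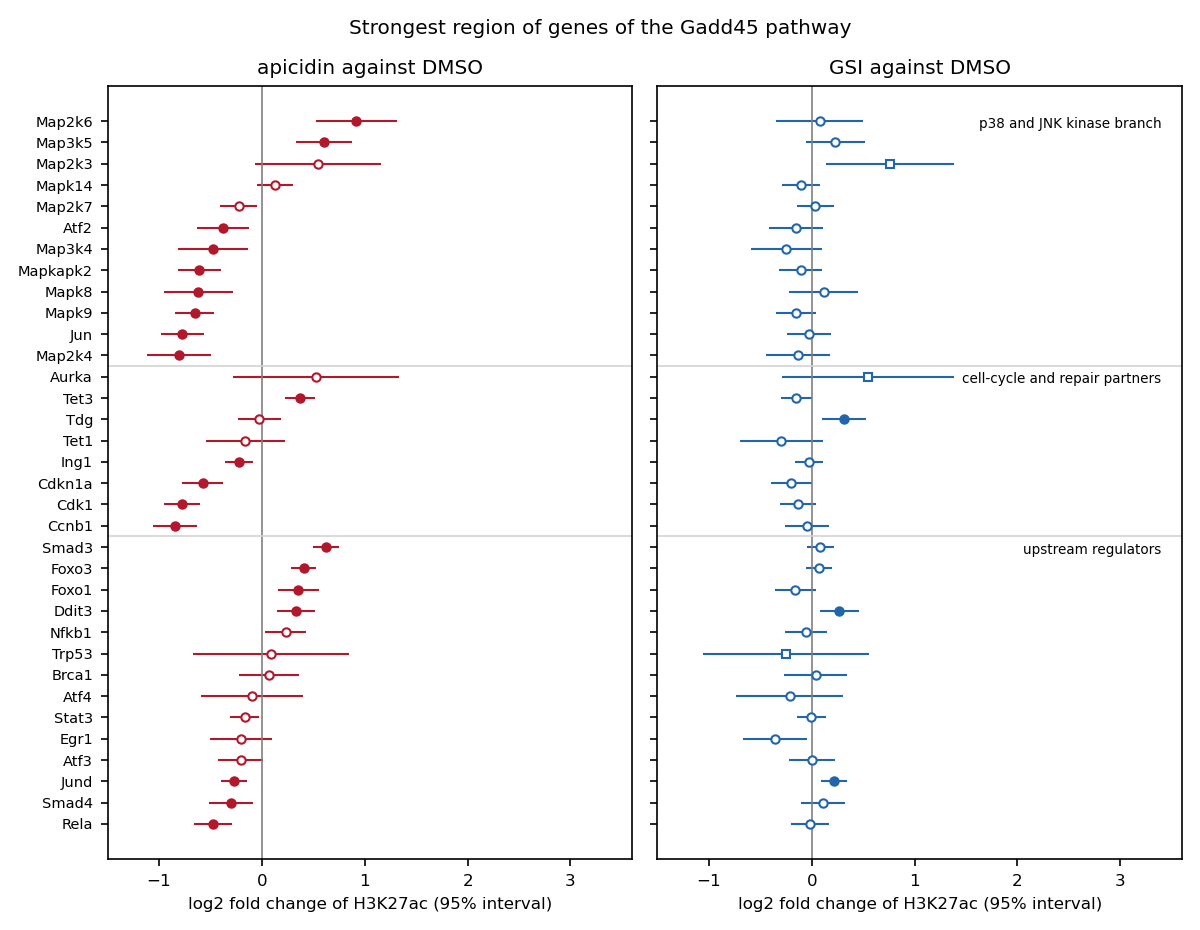
Log2 fold changes with 95% intervals at the strongest region of the 34 listed genes, for apicidin (left) and GSI (right), grouped by list. Filled points were called, open circles were not, and open squares had no adjusted p. With apicidin 7 genes were higher and 14 lower, and with GSI 3 were higher.

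The genes nearest to each Gadd45 gene over the 2 comparisons were listed as a description. Likeness was the distance between pairs of log2 fold changes (apicidin, GSI) of the strongest region of each gene, among genes within 2-fold in base mean. For the start region of Gadd45g the nearest of 5017 genes were Adipoq, Rab19 and Snai3, at distances of 0.36, 0.38 and 0.43. None of their regions covered a start: they lay 27469, 392 and 2992 bases from it. The values of Adipoq were 2.06 ± 0.14 with apicidin and 1.26 ± 0.15 with GSI in the authors' deposited table. For the upstream region of Gadd45b the nearest of 1932 genes were Scn10a, St3gal2 and Ccr8, at 0.10, 0.23 and 0.27. Their regions lay 24439, 18971 and 3956 bases from a start, and the SE of Ccr8 with apicidin was 0.86. The strongest region of Gadd45a, 77.7 kb upstream with a base mean of 336.4, had -0.19 ± 0.14 and -0.23 ± 0.15 in the authors' deposited table, and its nearest of 5167 genes were Lsm3, Rad50 and Map1s, at 0.01, 0.01 and 0.02.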

How the data were processed

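H3K27ac was profiled by ChIP-seq in Beko cells after apicidin, GSI or DMSO. The submitters' processing notes list Bowtie2, SAMtools, deepTools and FastQC but no versions, and give mm9 as the build. The calling of regions, the counting of reads and any role of the inputs are steps not given in the sources used here.

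Per the file headers, the deposited columns are those of DESeq2. The authors' base mean is a signal, the mean of normalised read counts. The authors' own are also the deposited log2 fold changes with their SEs and Wald values (a score), and each deposited p-value, raw or adjusted. The headers do not name what each treatment was set against, which was taken to be DMSO. Other deposited columns are coordinates, distances to a start site and an RBPJ overlap score of 0 or 1. Recomputed Benjamini-Hochberg values differed from the deposited adjusted p by at most 5.40e-07 (apicidin) and 1.03e-06 (GSI). Depth per library is unknown, and precision is carried by the SE.

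Intervals at 95% came from the SE. The difference of the treatments was tested against 0 with the SEs of both combined as if independent (normal, two-sided), adjusted over all 56342 regions. Regions within 100 kb of each start were counted, and each listed gene by its region of highest base mean. The genes named are all members, called regions near them, up to 3 genes per list and direction with the smallest p, and the 3 genes nearest to each member. The region over the Gadd45a start, Map3k4, Lztfl1 and, for calls that centring ended, Atf2 and Ing1 were named outside this rule after their values were seen. Members, lists and motifs were chosen with earlier results of these data known, and the intervals between family regions were added after seeing the data. Python 3.11.15, numpy 2.4.6, pandas 2.3.3 and scipy 1.17.1 were used. Inputs and RBPJ libraries were not analysed here beyond the overlap mark. Alternatives were centring, trend subtraction, stricter thresholds, a base-mean filter, adjustment over all regions, another SE and a narrower window.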

Additional observations from a re-analysis of the deposited data

How the results depend on the processing

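Of 208 values of single family regions under the alternatives, 192 kept their direction and side of the threshold, 8 lost a call, 4 gained one and 4 changed sign. A region without a call could not gain one under a stricter threshold, so its values under those settings were fixed beforehand. The apicidin calls at the Gadd45g start and at both Gadd45b regions near the start held under each alternative, except that the base-mean filter left out Gadd45b. Changes of sign were at values near 0: the Gadd45g region 21.1 kb upstream stood at 0.067 when centred and 0.044 with the trend subtracted, and the apicidin minus GSI differences of 2 Gadd45a regions at 0.025 and 0.095 when centred. With a log2 fold change of at least 1 required, 3 members were called with apicidin and 1 with GSI, 7 and 2 regions within 100 kb, and 0 and 0 listed genes. With an adjusted p under 0.01, 5 regions within 100 kb and 1 listed gene were called with GSI. Shares of all regions and genes at either threshold were not counted, so these counts are a description only. Within 50 kb, 6 of 23 regions rose and 1 fell with apicidin, beside 9.69% higher and 14.1% lower of all regions. With GSI 4 of 10 tested regions rose there and 1 fell, beside 6.62% higher and 7.17% lower of all tested regions. Adjusting over all regions left 1 listed gene called with GSI. When each gene was given the mean of its regions, the apicidin list medians were -0.18 for the kinase branch, -0.02 for the partners and 0.18 for the upstream regulators, against -0.43, -0.19 and -0.01 by the strongest region. The cause of these shifts was not tested. No paired analysis was possible because the deposited table holds no value per library, and no library could be left out for the same reason.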
